A study of Mus musculus with 43 samples.

Results

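Transcript levels of 7 genes that mark B lymphocytes (Ms4a1, Pax5, Cd79a, Cd79b, Cd22, Blk and Fcer2a) were followed in mouse lung during exposure to the allergen house dust mite (HDM), with and without an antibody against the cytokine IL-33. The genes were chosen by symbol and looked up by Entrez ID in the deposited count table, where all 7 were found among 24475 IDs. The 43 libraries came from mice that all carried a humanised Il33 gene in both copies (Il33hu/hu) on a mixed C57BL/6NTac (75%) / 129S6SvEvTac (25%) background. There were 7 libraries from mice given saline, 10 from mice given HDM for 4 weeks and 7 from mice given HDM for 15 weeks, all without antibody. Another 4 came from mice given HDM for 15 weeks with an isotype control antibody and 15 from mice given HDM for 15 weeks with the anti-IL-33 antibody. The labels give the saline mice no time, so that age or time in the study cannot be told apart from HDM in any contrast with saline. Nor can they be told apart from the length of exposure between 4 and 15 weeks of HDM. The sources used here do not state antibody dose, when it began or the animals' ages.

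B cells recognise antigen through surface immunoglobulin, which signals only together with the paired chains CD79a and CD79b. The kinase BLK passes that signal on, CD22 dampens it, and CD20, the product of Ms4a1, is a membrane protein of mature B cells. PAX5 is the transcription factor that holds cells to the B lineage, and it is switched off when they become antibody-secreting plasma cells. CD23, the product of Fcer2a, is the low-affinity receptor for IgE. It is found on mature follicular B cells, and its gene is known to respond to IL-4 through the factor STAT6. In the lung, B cells are sparse at rest and can gather in lymphoid aggregates near airways and vessels during chronic inflammation.

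Library totals ranged from 4795214 to 12599467 counts, and the lowest raw count of any of the 7 genes in any library was 29. Levels are given in CPM, a gene's count relative to its library's total and brought to a common total, after scaling by TMM, an edgeR method that evens out differences in RNA composition. A gene is said to rise or fall when its Benjamini-Hochberg (BH) adjusted p from edgeR's quasi-likelihood test, over 15598 genes, is under 0.05. Nothing in the labels says that libraries of a group came from separate animals, so these p-values measure the spread between libraries. Sample numbers fell in 2 ranges whose meaning is not stated, with libraries of every group in both, and the range was a term in the fit. Only 2 libraries correlated poorly with the rest of their group (mean Spearman correlation 0.916 for replicate 1 at 15 weeks and 0.925 for replicate 3 at 4 weeks, against 0.964 or more in the others), and results that change without them are given with both values.

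All 7 genes were detected in every library, so the lung RNA held B cell transcripts in each group. Per kilobase of exon, Cd79a had the highest level in saline lungs, at 37.8 ± 6.54 CPM per kb (SD, n = 7), followed by Cd79b at 29.2 ± 4.05. Cd22 averaged 9.85 ± 2.04 and Fcer2a 7.56 ± 1.54 CPM per kb in the same libraries. Ms4a1, at 5.91 ± 0.862, and Blk, at 5.52 ± 1.05, did not differ beyond their spread. Pax5 was lowest, at 1.14 ± 0.245 CPM per kb. At 15 weeks of HDM Fcer2a averaged 20.4 ± 3.31 (SD, n = 7) and Cd22 15.5 ± 2.29 CPM per kb, so Fcer2a had moved past Cd22 in that order.

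The receptor chain gene Cd79a (Entrez 12518, chromosome 7, 24897497 to 24901858, GRCm38, forward strand) measured 38.25, 55.98 and 67.1 CPM as the lowest, median and highest of the 7 saline libraries. After 4 weeks of HDM the same values were 71.99, 118 and 246 CPM, and after 15 weeks 58.6, 103 and 158 CPM. All 10 libraries at 4 weeks lay above every saline library, while 5 of 7 did at 15 weeks. The isotype libraries held 112, 75.4, 70.4 and 94.2 CPM, and the anti-IL-33 libraries ran from 47.0 over 77.6 to 175 CPM. At 15 weeks the highest library without antibody, at 158 CPM, was replicate 1, which also stood apart from its group in the whole transcriptome.

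Its partner Cd79b (Entrez 15985, chromosome 11, 106311341 to 106314562, reverse strand) spanned 31.3 to 49.0 CPM in saline and 51.8 to 157 CPM at 4 weeks, with no overlap. At 15 weeks the range was 35.1 to 78.0 CPM, around a median of 53.7, and it overlapped both of the other groups. Isotype libraries ran from 53.0 to 66.7 CPM and anti-IL-33 libraries from 35.7 to 136 CPM.

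Cd22, an inhibitory co-receptor of the Siglec family (Entrez 12483, chromosome 7, 30865404 to 30880342, reverse strand), measured 34.8, 47.6 and 65.7 CPM as the lowest, median and highest saline values. The corresponding values were 51.1, 89.1 and 162 CPM at 4 weeks and 61.3, 83.2 and 92.1 CPM at 15 weeks. With anti-IL-33 they were 71.7, 88.5 and 132 CPM, so all 15 treated libraries exceeded every saline library. The 4 isotype libraries measured 60.8, 64.3, 68.2 and 103 CPM.

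Ms4a1, the gene of CD20 (Entrez 12482, chromosome 19, 11249679 to 11266149, reverse strand), ranged from 29.1 to 43.5 CPM in saline, 29.5 to 97.8 CPM at 4 weeks and 13.03 to 56.05 CPM at 15 weeks. The low end at 4 weeks was replicate 3 and the low end at 15 weeks was replicate 1, the 2 libraries that stood apart. Isotype libraries spanned 29.6 to 43.2 CPM. The anti-IL-33 group was the widest, from 23.3 to 155 CPM around a median of 40.3, and 1 library, replicate 7, gave the top value.

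Blk, a kinase of the Src family (Entrez 12143, chromosome 14, 63372837 to 63417187, reverse strand), measured 9.83, 14.8 and 18.5 CPM as the lowest, median and highest saline values. At 4 weeks these were 15.6, 22.6 and 44.2 CPM, and at 15 weeks 6.33, 10.3 and 14.1 CPM. The 15-week libraries all lay below every 4-week library, and none of them reached the saline median. The isotype libraries held 13.4, 11.1, 11.9 and 13.3 CPM, and the anti-IL-33 libraries ran from 7.22 over 14.3 to 35.01 CPM.

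Pax5 (Entrez 18507, chromosome 4, 44524748 to 44710694, reverse strand) gave 7.86, 9.51 and 13.4 CPM as the lowest, median and highest saline values. At 4 weeks the values were 9.995, 22.05 and 56.7 CPM, the widest spread of any group for this gene. At 15 weeks they fell back to 5.85, 8.26 and 15.2 CPM, inside or below the saline range in 6 of 7 libraries. Isotype libraries held 14.2, 8.05, 12.03 and 10.1 CPM, and anti-IL-33 libraries ran from 5.72 over 8.64 to 16.9 CPM. The 4-week mean was 25.5 ± 14.8 CPM (SD, n = 10), and the other 4 group means lay between 8.81 and 11.1 CPM, within their spread of each other. Several genes on the other strand overlap Pax5, Ms4a1 and Cd22, and the sources used here do not state whether counting used strand.

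Fcer2a, the CD23 gene (Entrez 14128, chromosome 8, 3680280 to 3694174, reverse strand), followed another course. Its saline libraries gave 14.7, 25.2 and 27.99 CPM as lowest, median and highest, and its 4-week libraries 29.8, 58.9 and 91.4 CPM. At 15 weeks the values stayed at 44.3, 63.8 and 79.3 CPM, and the isotype libraries held 58.8, 44.9, 73.1 and 61.8 CPM. Every library with HDM and no anti-IL-33 was above every saline library. With anti-IL-33 the values were 19.9, 37.3 and 48.9 CPM. Of these 15 libraries 12 lay below every 15-week library without antibody, and 13 lay above every saline library. The treated level thus sat between saline and untreated disease.

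**Figure D1:**
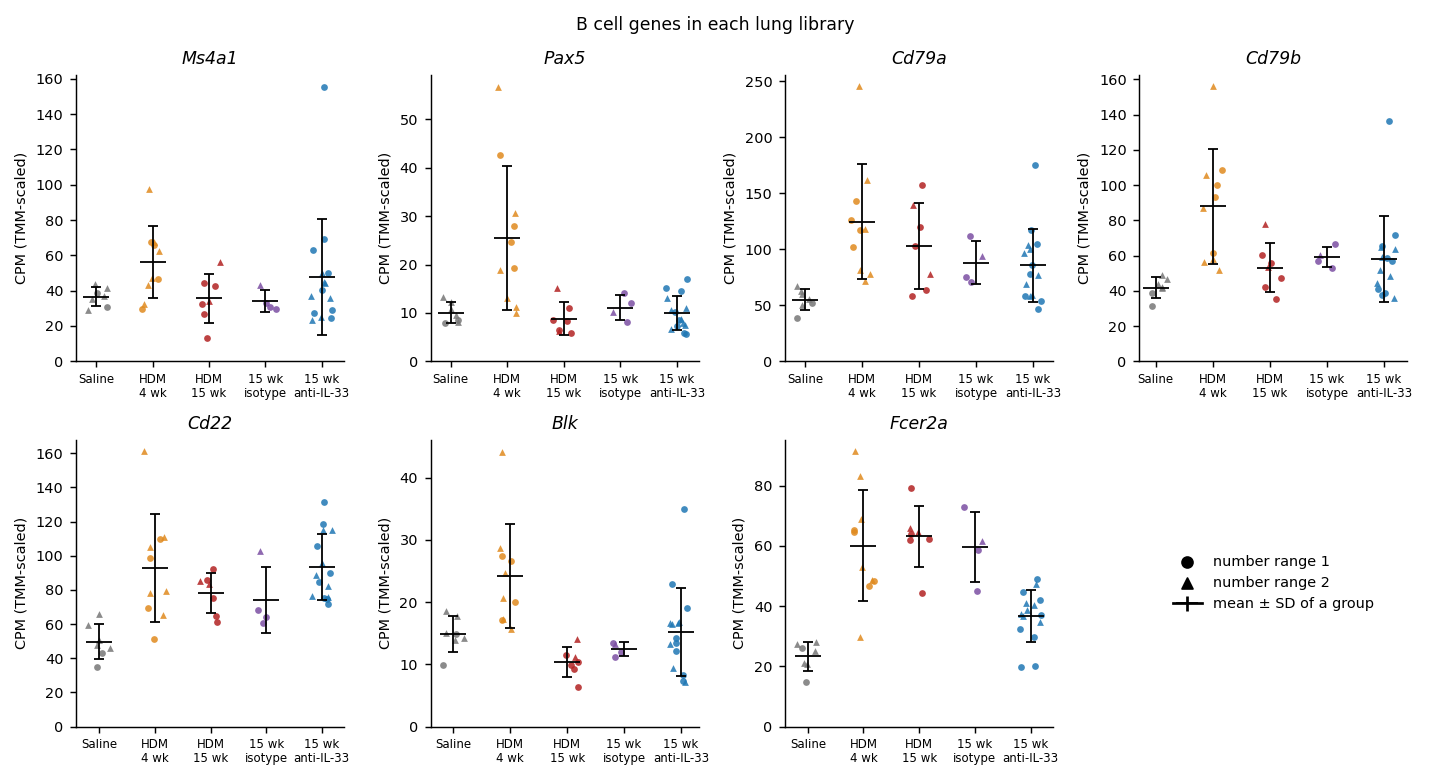
CPM (TMM-scaled, linear axes from 0) of the 7 genes in each of 43 libraries by group, with circles for number range 1, triangles for number range 2 and the mean ± SD of each group. Pax5 and Blk peak at 4 weeks, while in the Fcer2a panel the 15-week libraries stay between 44.3 and 79.3 CPM and the anti-IL-33 libraries lie between 19.9 and 48.9 CPM.

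RefSeq lists promoters for 4 of the 7 genes on GRCm38.p6 (Pax5, Cd79a, Cd22 and Fcer2a), with 3 start sites for Fcer2a. The 250 bases before 2 of the Fcer2a starts are shown because this gene moved apart from the others and is a textbook STAT6 target. Capitals mark matches to TTC and GAA with 4 bases of any kind between them, a spacing that STAT6 can bind, and to CAGGTG, an E-box form bound by E2A proteins, both searched on both strands. The first window, chr8:3690862-3691111 on the reverse strand, lies in an intron of the longer transcripts, upstream of the start at 3690861. The second, chr8:3694175-3694424 on the reverse strand, lies upstream of the start at 3694174 and holds no match.
Fcer2a, start 3690861: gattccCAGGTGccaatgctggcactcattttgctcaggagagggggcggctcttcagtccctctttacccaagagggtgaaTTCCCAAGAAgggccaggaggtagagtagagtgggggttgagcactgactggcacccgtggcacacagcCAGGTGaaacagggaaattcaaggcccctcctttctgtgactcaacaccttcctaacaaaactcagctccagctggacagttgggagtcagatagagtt
Fcer2a, start 3694174: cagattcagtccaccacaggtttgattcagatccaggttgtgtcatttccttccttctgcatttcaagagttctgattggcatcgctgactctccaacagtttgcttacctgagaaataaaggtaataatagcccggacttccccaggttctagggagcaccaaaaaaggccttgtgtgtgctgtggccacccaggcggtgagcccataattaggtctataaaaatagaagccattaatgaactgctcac
In the first window TTCCCAAGAA begins 168 bases before the start, and CAGGTG begins 244 and 99 bases before it. TTC and GAA at that spacing occur in 5.85% of 32851 RefSeq promoter windows of that length and CAGGTG in 17.2%. None of the windows of Pax5, Cd79a and Cd22 holds TTC and GAA with 4 bases between them. Fcer2a has more windows in which to find such a match. Cd79a has CAGGTG at 154 bases and the ETS-type word AGGAAGTG, found in 3.14% of windows, at 55 bases before its start. Cd22 has a CCCNNGGG match, the EBF-type word present in 11.8% of windows, at 48 bases and CACCTG, the reverse complement of CAGGTG, at 245 bases before its start. No match of the octamer ATGCAAAT (in 1.6% of windows) or of TTCNNNGAA (7.02%), and no overlap between matches, was found in these windows. The count table gives no start site usage, so which Fcer2a start was read is not known here.

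After 4 weeks of HDM 6 of the 7 genes rose against saline, where 29.3% of all 15598 genes rose, 27.5% fell and 56.8% changed. Fcer2a rose by 1.38 ± 0.18 on the log2 scale (SE; edgeR adjusted p = 4.21e-08), Pax5 by 1.33 ± 0.28 (adjusted p = 0.000108) and Cd79a by 1.18 ± 0.24 (adjusted p = 7.75e-05). Cd79b rose by 1.07 ± 0.22, Cd22 by 0.93 ± 0.16 and Blk by 0.71 ± 0.23 (adjusted p = 7.04e-05, 7.86e-06 and 0.00766). Ms4a1 was 0.61 ± 0.29 higher and missed the threshold (adjusted p = 0.0696). Without the 2 libraries that stood apart it passed, at 0.69 and an adjusted p of 0.0313, and without replicate 10 or replicate 3 at 4 weeks alone its adjusted p was 0.047 and 0.0411. The median over the 7 genes was 1.07 and over all genes 0.01. In number range 1, with 2 saline libraries, Blk was 0.91 higher with an adjusted p of 0.153, while the other 5 risen genes passed in both ranges. In bulk lung RNA more B cells and more RNA per B cell cannot be told apart, here and in every comparison that follows.

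At 15 weeks 3 of the 7 genes were higher than in saline, beside 31.2% of all genes that were higher, 28.1% that were lower and 59.2% that changed. Fcer2a rose by 1.51 ± 0.19 (edgeR adjusted p = 2.91e-08), Cd79a by 0.91 ± 0.26 (adjusted p = 0.00307) and Cd22 by 0.75 ± 0.18 (adjusted p = 0.000462). Pax5, at -0.21 ± 0.31, and Ms4a1, at -0.06 ± 0.32, had intervals that included 0, as did Cd79b at 0.35 ± 0.24. Blk was 0.49 ± 0.26 lower on the log2 scale in the fit (log2 fold change -0.49, adjusted p = 0.1), with all 7 libraries below the saline mean and 3 below every saline library. Within number range 1 and number range 2 Cd79a was 1.16 and 0.89 higher, just short of the threshold each time (adjusted p = 0.0527 and 0.0574), whereas Fcer2a and Cd22 passed in both. The median over the 7 genes was 0.35, against 0.01 over all genes.

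The direct comparison of 15 with 4 weeks of HDM showed where the 7 genes parted. Pax5, Blk and Cd79b fell, 3 of 7, where 9.08% of all genes fell, 12.3% rose and 21.4% changed. Over all genes that is 1918 higher and 1416 lower, which became 1502 and 1939 with upper-quartile scaling; the same 3 B cell genes passed. Pax5 fell by 1.54 ± 0.28 on the log2 scale (edgeR adjusted p = 0.000242), with 5 of 7 libraries at 15 weeks below every library at 4 weeks. Blk fell by 1.20 ± 0.24 (adjusted p = 0.000507) without overlap between the groups, and Cd79b by 0.72 ± 0.22 (adjusted p = 0.0142). Ms4a1 had a log2 fold change of -0.68 ± 0.30 (adjusted p = 0.0977), which passed without replicate 7 at 15 weeks (-0.87, adjusted p = 0.0433). Cd79a, at -0.27 ± 0.24, and Cd22, at -0.18 ± 0.16, did not pass, and for Fcer2a the value was 0.13 ± 0.17 with a 95% interval from -0.22 to 0.47. In number range 1 the 3 falls held, at -1.85 for Pax5, -1.27 for Blk and -0.93 for Cd79b. In number range 2, which has 2 libraries at 15 weeks, the values were -1.14, -0.99 and -0.39 and none passed (adjusted p = 0.375, 0.206 and 0.657). With only the 4-week and 15-week groups in the fit Cd79b was at -0.70 with an adjusted p of 0.0608.

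Isotype antibody against no antibody at 15 weeks called none of the 7 genes and 0 of 15598 genes (0%) by edgeR, while 933 genes had an unadjusted p under 0.05. DESeq2 called 8 genes in this comparison and limma-voom 0, none of them among the 7. The log2 fold changes of the 7 genes lay between -0.23 for Cd79a and 0.33 for Pax5, each with an interval that included 0. With 4 isotype libraries a difference in Pax5 between -0.38 and 1.03 lies within the 95% interval, so a change of moderate size was not detectable.

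Under anti-IL-33 Fcer2a alone of the 7 genes was called against isotype, and it was lower, beside 3.14% of all genes that fell, 3.58% that rose and 6.71% that changed. Its log2 fold change was -0.74 ± 0.19 (edgeR adjusted p = 0.0194), and 13 of 15 treated libraries lay below all 4 isotype libraries. This call rested on single isotype libraries. Without isotype replicate 1 the value was -0.74 with an adjusted p of 0.0851, and without isotype replicate 3 it was -0.61 with an adjusted p of 0.137. Within the number ranges it was -0.78 in range 1 and -0.66 in range 2, short of the threshold in both (adjusted p = 0.0928 and 0.778). The other 6 genes ranged from -0.15 for Pax5 to 0.48 for Ms4a1, none of them called. Ms4a1 was at 0.22 without anti-IL-33 replicate 7.

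Against the 15-week libraries without antibody Fcer2a was again the one gene called, and it fell by 0.82 ± 0.15 on the log2 scale (edgeR adjusted p = 0.00023), where 19.9% of all genes fell, 15.9% rose and 35.8% changed. All 15 treated libraries were below the mean without antibody. The values were -0.86 in number range 1 (adjusted p = 0.00898) and -0.73 in number range 2, which holds 2 untreated libraries (adjusted p = 0.308). Blk was 0.53 ± 0.22 higher and just missed the threshold (adjusted p = 0.0542). It passed when any of anti-IL-33 replicates 1, 8, 11 or 12 or 15-week replicate 7 was left out, with adjusted p-values from 0.0289 to 0.0416. The remaining 5 genes lay between -0.27 for Cd79a and 0.42 for Ms4a1, which was at 0.17 without anti-IL-33 replicate 7 and 0.26 without 15-week replicate 1. Both antibody contrasts use the same 15 treated libraries, so they are not independent of each other.

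Treated lungs still differed from saline in 3 of the 7 genes, all higher, beside 20% of all genes that were higher, 18.5% that were lower and 38.6% that changed. Cd22 rose by 0.97 ± 0.16 (edgeR adjusted p = 3.9e-06), Fcer2a by 0.69 ± 0.17 (adjusted p = 0.000935) and Cd79a by 0.64 ± 0.23 (adjusted p = 0.0226). The Cd79a call was lost without saline replicate 2 (0.56, adjusted p = 0.0697) and within each number range (0.995 and 0.45, adjusted p = 0.188 and 0.179). In number range 1, with 2 saline libraries, Fcer2a was 0.75 higher with an adjusted p of 0.194. Cd79b, at 0.47 ± 0.20 with an adjusted p of 0.062, passed when anti-IL-33 replicate 1, 8 or 11 was left out (adjusted p = 0.0488, 0.0492 and 0.0387). Pax5, at -0.04 ± 0.26, and Blk, at 0.04 ± 0.22, lay near 0.

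**Figure D2:**
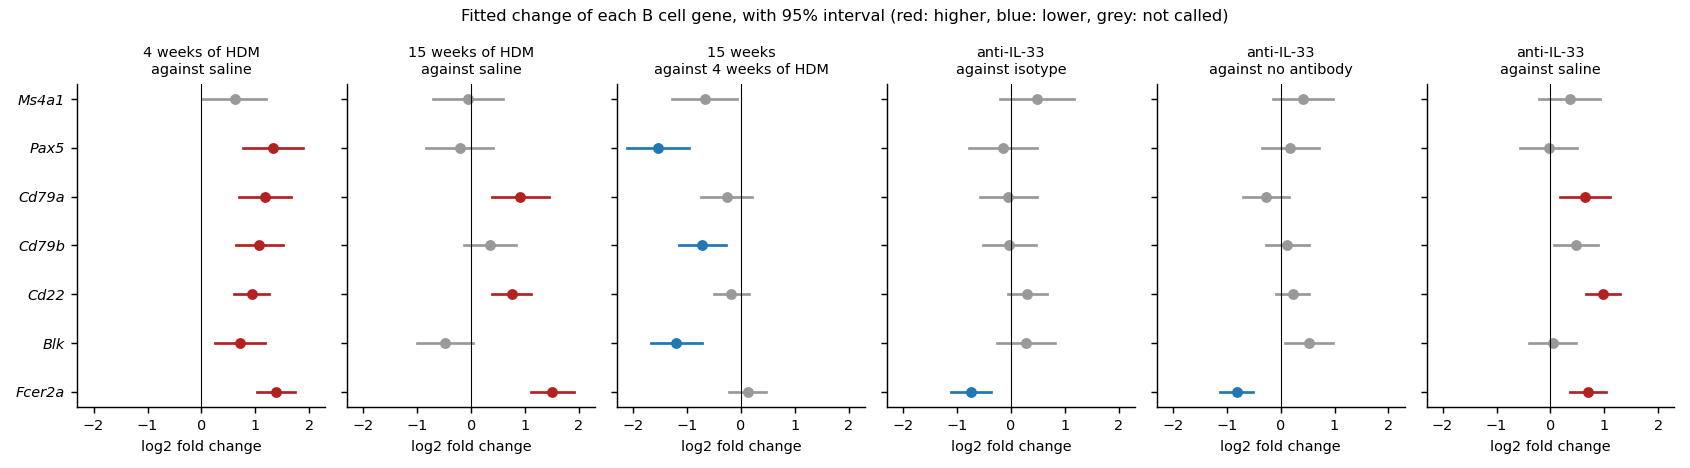
Log2 fold change with its 95% interval for each gene in 6 of the 7 comparisons (isotype against no antibody, which had no calls, is left out), in red where called higher, blue where called lower and grey where not called. Pax5, Cd79b and Blk are blue for 15 against 4 weeks, and Fcer2a is the single blue gene in both antibody comparisons.

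To see how the genes moved against each other, each gene's log2 level was taken relative to the mean of the other 6 in the same library, so that a common change in all 7 cancels. The 7 relative levels of a library sum to 0 and are therefore linked. Of 49 gene-by-comparison differences, 20 had a BH-adjusted exact permutation p under 0.05 (two-sided), and all 20 had the same sign within number range 1 and within number range 2. In number range 2 alone 1 passed. That range has 2 libraries at 15 weeks without antibody, so exact tests with that group could hardly pass after adjustment. This does not cover the 4 differences at 4 weeks against saline and the 3 of anti-IL-33 against saline. Those do not use that group, and no more than 1 of them passed in number range 2. Without the 2 libraries that stood apart 19 passed, Cd79a between 4 and 15 weeks being the one lost (0.25, BH-adjusted exact permutation p = 0.0769, against 0.38). By comparison the 20 were 4 of 7 at 4 weeks and 6 of 7 at 15 weeks against saline, and 5 of 7 between the 2 times. For the antibody there were 0 against isotype, 2 against no antibody and 3 against saline, and isotype against no antibody had 0.

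Relative to the other B cell genes, Fcer2a stood at -0.33 ± 0.20 in saline (SD, n = 7), 0.10 ± 0.31 at 4 weeks (n = 10) and 0.94 ± 0.38 at 15 weeks (n = 7). The difference of 1.27 between 15 weeks and saline had an exact permutation p of 0.000583, the smallest that 7 against 7 libraries allow (BH-adjusted 0.00571). It was 1.32 in number range 1 and 1.10 in number range 2. Between 4 and 15 weeks Fcer2a gained 0.84 (BH-adjusted exact permutation p = 0.00571). Under anti-IL-33 its relative level was -0.03 ± 0.75 (n = 15), which was 0.97 below no antibody (log2 difference -0.97, BH-adjusted permutation p = 0.0126) and 0.78 below isotype (log2 difference -0.78, exact permutation p = 0.0529, BH-adjusted 0.113). Values of single treated libraries ran from -2.01 to 0.88, the broadest range of any group.

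Blk moved the other way, from -1.07 ± 0.09 in saline over -1.41 ± 0.19 at 4 weeks to -2.05 ± 0.30 at 15 weeks. Its 15-week level was 0.99 below saline (log2 difference -0.99, BH-adjusted exact permutation p = 0.00571) and 0.64 below 4 weeks (log2 difference -0.64, BH-adjusted p = 0.00504). With anti-IL-33 Blk was 0.48 higher than without antibody (BH-adjusted permutation p = 0.0161). Pax5 lost 0.66 relative to saline at 15 weeks (log2 difference -0.66, BH-adjusted p = 0.0119) and Ms4a1 0.55 (log2 difference -0.55, BH-adjusted p = 0.0169), both by the exact permutation test. Without the 2 libraries that stood apart the Ms4a1 difference was -0.32 (BH-adjusted exact permutation p = 0.0349). Cd79a gained 0.57 and Cd22 0.38 in the same comparison (BH-adjusted exact permutation p = 0.00816 and 0.0255). These gains were 0.41 and 0.31 without the 2 libraries that stood apart (BH-adjusted exact permutation p = 0.011 and 0.0451). For Cd79b the difference with all libraries was -0.02 (exact permutation p = 0.74). Its SD over libraries was no more than 0.20 in any group.

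**Figure D3:**
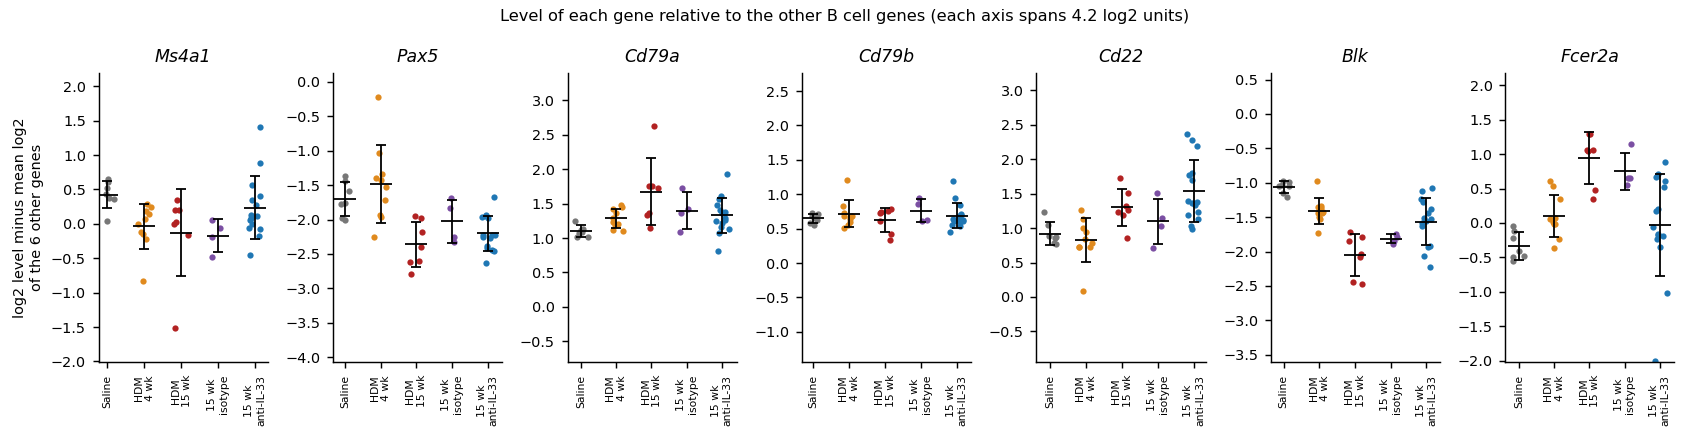
Log2 level of each gene minus the mean log2 level of the 6 other genes in each library, by group, with the mean ± SD; every axis spans the same number of log2 units. Fcer2a climbs from saline (mean -0.33) to 15 weeks (0.94) and is spread from -2.01 to 0.88 under anti-IL-33, while Blk descends from -1.07 to -2.05.

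Across the 43 libraries Ms4a1, Pax5, Cd79a, Cd79b and Blk varied together, with Pearson correlations of log2 CPM from 0.59 to 0.88 among the 10 pairs. After each group's mean in each number range was taken out, those pairs still lay between 0.60 and 0.88. Cd22 correlated less with the rest, from 0.27 to 0.59, and Fcer2a from 0.01 with Ms4a1 to 0.50 with Cd22. With group and range means removed, Fcer2a lay between -0.07 and 0.44 and again had its highest value with Cd22. These correlations describe libraries that share depth, scaling and tissue sampling, and carry no test.

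**Figure D4:**
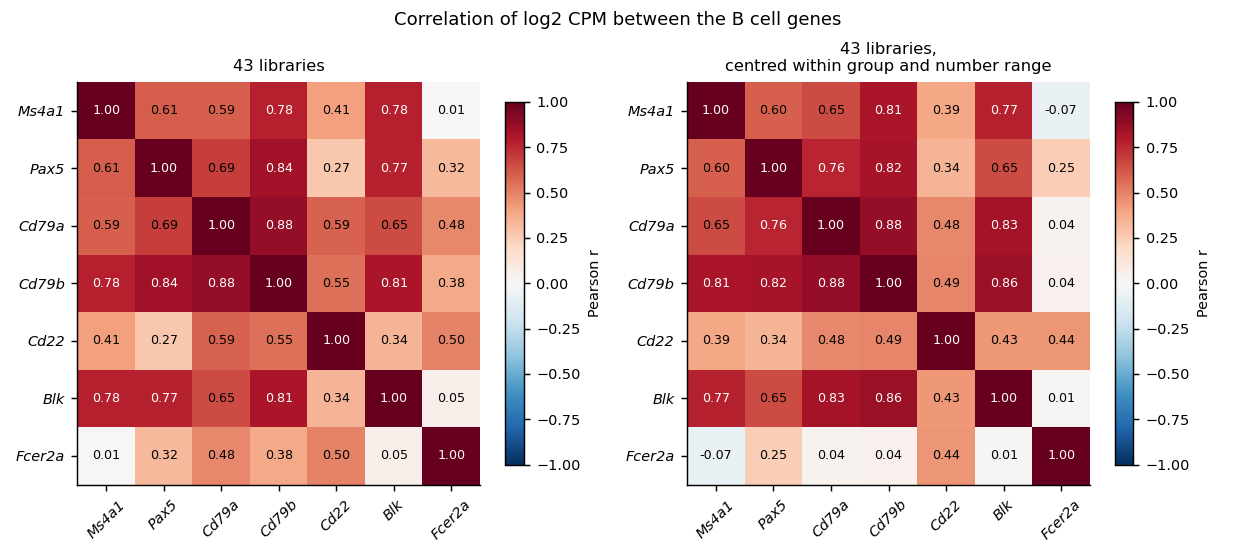
Pearson correlation of log2 CPM between the 7 genes over 43 libraries, as measured on the left and after centring within group and number range on the right, with the value in each square. The row of Fcer2a is pale in both panels (0.01 to 0.50 on the left, -0.07 to 0.44 on the right), while pairs among Ms4a1, Pax5, Cd79a, Cd79b and Blk lie at or above 0.59.

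For likeness in pattern, 14083 other genes with a mean of 1 CPM or more were ranked. Immunoglobulin segments, predicted and clone-named genes and IDs without a symbol were left out of the ranking. The log2 levels of the 7 genes were each brought to the same mean and SD and then averaged. The gene whose log2 CPM followed that average most closely over the 43 libraries was Il21r, the IL-21 receptor (r = 0.922). Next came Spib, a transcription factor of B cells and plasmacytoid dendritic cells (r = 0.919), Fcrla (0.901), Cd37 (0.898), Acap1 (0.893) and Lta (0.886). Rhoh, Tnfrsf13c, Carmil2 and H2-DMb2 completed the top 10, at 0.885, 0.882, 0.880 and 0.875. With group and range means taken out, Spib (0.871) and Fcrla (0.870) led. For Fcer2a alone, a list chosen after its values were seen, the closest genes were Nrros (0.863), Ifngr2 (0.859), the chemokine Ccl7 (0.853), complement C3 (0.848) and Arg1 (0.848), and none of that top 10 is in a B cell list. After centring the first were Mcm3 (0.696) and Fen1 (0.693), genes of DNA replication, and the centred top 10 held 1 gene of a B cell list, Vav1 of receptor signalling (0.609).

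The counts for gene lists that follow stand beside the shares of all genes: 29.3% rose and 27.5% fell at 4 weeks, 31.2% were higher and 28.1% lower than saline at 15 weeks, and 12.3% rose and 9.08% fell between the 2 times. Among other genes of B cell surface molecules, 12 of 14 tested rose at 4 weeks and none fell, with a median log2 fold change of 0.99 (0.01 over all genes). Cd72, an inhibitory receptor, rose by 1.43 ± 0.22 and Fcrl5 by 1.76 ± 0.36 (edgeR adjusted p = 1.5e-06 and 7.81e-05). At 15 weeks 4 were higher than saline and 2 lower, with a median of 0.02, a count near the share of all genes. From 4 to 15 weeks 10 of 14 fell, with a median of -0.78, among them Siglecg by 1.24 ± 0.23 and Cr2, the complement receptor CD21, by 0.96 ± 0.26 on the log2 scale. Cd37, Fcrla, Fcrl5 and Ly86 were the 4 that were still above saline. Of 3 pan-leukocyte genes 2 rose at 4 weeks and 1 at 15 weeks against saline. Laptm5 rose by 1.15 ± 0.20 and 1.92 ± 0.23 and Coro1a by 0.84 ± 0.17 at 4 weeks, while Ptprc (CD45) was at 0.01 ± 0.16 and -0.12 ± 0.18, not called at either time. Their summed level was 467 to 747 CPM in saline, 787 to 1149 CPM at 4 weeks and 891 to 1931 CPM at 15 weeks, and their part in the B cell gene levels was not tested.

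Genes for signalling below the B cell receptor were higher in 12 of 15 against saline at 4 weeks and in 12 of 15 at 15 weeks, with medians of 0.57 and 0.87. The adaptor Blnk rose by 2.07 ± 0.22 and 2.19 ± 0.23, the inhibitory Fc receptor gene Fcgr2b by 2.21 ± 0.18 and 2.27 ± 0.20, and the kinase Btk by 1.31 ± 0.13 and 1.15 ± 0.14. Between 4 and 15 weeks 3 rose (Syk, Pik3ap1 and Vav1) and 1 fell, Bank1, a B cell scaffold protein, by 1.02 ± 0.24 on the log2 scale. Several of these genes are also expressed by macrophages, whose markers moved too. Of 8 macrophage and monocyte genes 6 rose at 4 weeks, and at 15 weeks 6 rose and 1 fell, with summed levels of 323 to 654 CPM in saline, 841 to 1213 at 4 weeks and 1103 to 1838 CPM at 15 weeks. With isotype that sum ran from 1147 to 1400 CPM and with anti-IL-33 from 800.4 to 1834 CPM. The part of macrophages in the levels of these genes, and of Fcer2a and Cd22, was not tested.

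Of 11 transcription factors of the B lineage 7 rose and 1 fell at 4 weeks. The coactivator gene Pou2af1 rose by 2.23 ± 0.28 then and by 2.91 ± 0.30 at 15 weeks, where Pax5 stood at 1.33 and -0.21. Spib rose by 1.14 ± 0.25 at 4 weeks and stood at 0.55 ± 0.27 at 15 weeks (edgeR adjusted p = 0.0793). Bach2, a repressor that opposes plasma cell differentiation, was lower at 15 weeks than in saline by 0.76 ± 0.18 (log2 fold change -0.76). Ebf1, Bach2 and Foxo1 fell between 4 and 15 weeks and Spi1 rose. Under anti-IL-33 Pou2af1 was lower than under isotype, with a log2 fold change of -0.88 ± 0.27, and against no antibody it was lower by 1.10 ± 0.23 on the log2 scale (log2 fold change -1.10).

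Plasma cell genes were higher than saline at both times. Against saline 10 of 12 rose at 4 weeks and 11 of 12 at 15 weeks, with medians of 2.01 and 2.2999. From 4 to 15 weeks 5 of 12 rose (Xbp1, Derl3, Sdc1, Creld2 and Slamf7). Mzb1, a chaperone of antibody assembly, was above saline by 3.79 ± 0.37 at 4 weeks and 4.52 ± 0.40 at 15 weeks. For Jchain, which joins secreted IgA and IgM, these values were 4.10 ± 0.53 and 5.03 ± 0.58. Between the 2 times neither was called (0.73 and 0.94, edgeR adjusted p = 0.0747 and 0.122). Germinal centre genes rose in 7 of 10 and fell in 3 at 4 weeks. At 15 weeks 5 of 10 were higher than saline and 2 lower. Of 4 tested genes on the list of follicular dendritic cells, 2 rose at 4 weeks (Mfge8 and Enpp2) and 2 at 15 weeks (Mfge8, by 2.37 ± 0.39, and Clu, by 1.64 ± 0.27). The list's summed level ran from 536.7 to 628.6 CPM in saline, 737.5 to 2022 CPM at 4 weeks and 1056 to 3499 CPM at 15 weeks, and its part in the B cell gene levels was not tested. Madcam1 and Coch, on the same list, were too low to be tested, at no more than 0.773 and 1.79 CPM in any library.

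Receptors by which B cells home and survive split by time. Cxcr5, the receptor for CXCL13, rose by 0.77 ± 0.22 at 4 weeks, stood at -0.25 ± 0.25 at 15 weeks against saline and fell by 1.02 ± 0.23 on the log2 scale between the 2 times. Tnfrsf13b, the receptor TACI, rose by 1.20 ± 0.24 and 1.77 ± 0.27 against saline. Of the 9 genes 6 rose and 2 fell at 4 weeks, 3 rose and 2 fell at 15 weeks, and 5 fell from 4 to 15 weeks. The counts at 15 weeks are near the shares of all genes. S1pr1, which governs lymphocyte exit from tissue, was below saline at both times, with log2 fold changes of -0.92 ± 0.14 and -1.20 ± 0.16. It was 0.47 ± 0.13 higher with anti-IL-33 than without antibody (edgeR adjusted p = 0.0068), and at 0.36 ± 0.17 against isotype it was not called (adjusted p = 0.151). Of 8 genes of lung structural cells 5 fell and 3 rose at 4 weeks, and 4 were lower and 2 higher than saline at 15 weeks. The endothelial genes Pecam1 and Kdr were lower at both times. The part of structural cells in the level of S1pr1 was not tested.

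Ligands that draw or feed B cells rose in 10 of 12 against saline at both times, with medians of 1.61 and 1.24. Cxcl13, the chemokine of B cell follicles, rose by 1.42 ± 0.47 at 4 weeks and 2.15 ± 0.52 at 15 weeks, and Tnfsf13b, the survival factor BAFF, by 1.12 ± 0.14 and 0.55 ± 0.15. Il4, a switch factor for IgE, rose by 2.87 ± 0.42 and 1.61 ± 0.50. From 4 to 15 weeks Il4 fell by 1.26 ± 0.38 on the log2 scale, while Fcer2a was at 0.13 ± 0.17. The part of Il4 in the level of Fcer2a was not tested. With anti-IL-33 4 of the 12 were lower than with isotype (Tnfsf13b, Ccl21a, Cxcl12 and Il6) and 1 was higher (Ccl20). Of all genes 3.14% fell and 3.58% rose in that comparison. Tnfsf13b had a log2 fold change of -0.70 ± 0.15 there. Against no antibody 5 were lower and 1 higher, where 19.9% of all genes fell and 15.9% rose. Il4 was at -1.29 ± 0.39 there, on a low level of 0.218 to 1.34 CPM in the untreated 15-week libraries. Against isotype Il4 was at -0.86 ± 0.50 and not called (edgeR adjusted p = 0.256).

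**Figure D5:**
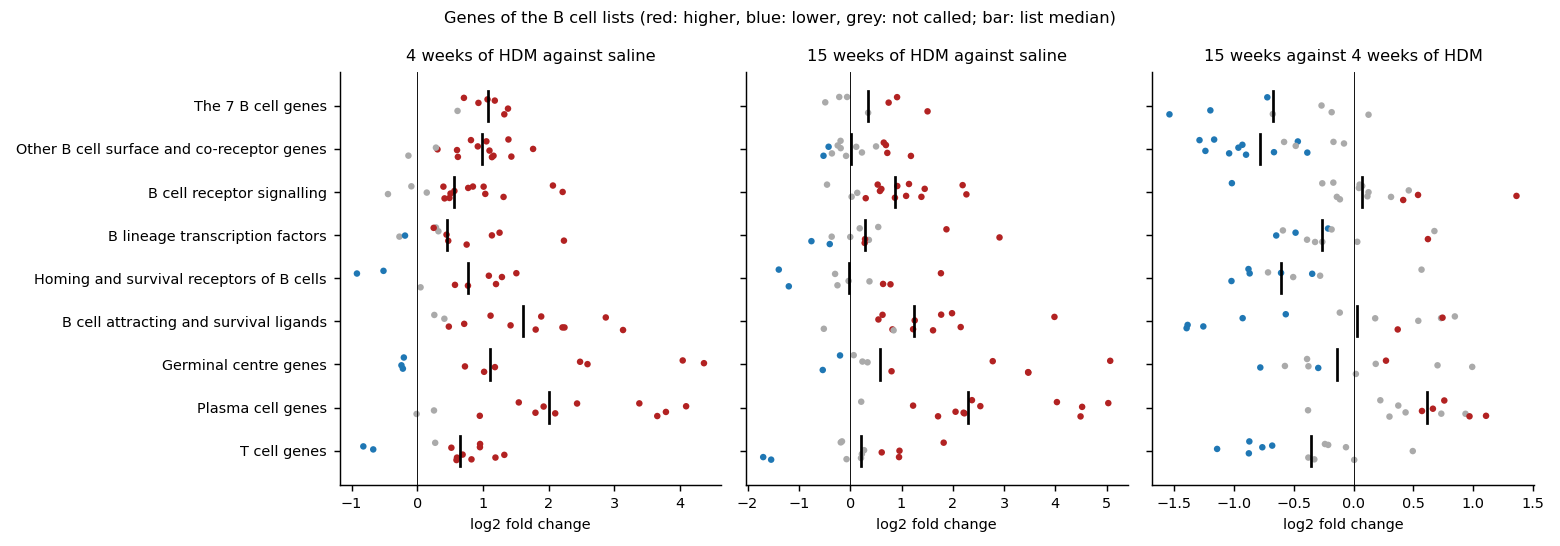
Log2 fold changes of single genes in 9 lists (points; red where higher, blue where lower, grey where not called) and the median of each list (black bar) for 3 comparisons, on axes that differ between the panels. B cell surface genes sit to the right of 0 at 4 weeks (median 0.99), around 0 at 15 weeks (0.02) and left of 0 for 15 against 4 weeks (-0.78), while the medians of the plasma cell genes lie to the right of 0 in all 3 panels (0.62 for 15 against 4 weeks).

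Of 12 T cell genes 9 rose and 2 fell at 4 weeks, 4 rose and 2 fell at 15 weeks, and 5 fell from 4 to 15 weeks, including Cd3g by 1.14 ± 0.21 on the log2 scale. The count of higher genes at 15 weeks is near the share of all genes. The summed level of the T cell genes was 99.7 to 197 CPM in saline, 188 to 356 CPM at 4 weeks and 174 to 246 CPM at 15 weeks. The summed level of the 7 B cell genes was 168 to 285 CPM in saline, 309 to 854 CPM at 4 weeks, 270 to 452 CPM at 15 weeks, 291 to 386 CPM with isotype and 248 to 670 CPM with anti-IL-33. Of 7 tested genes of plasmacytoid dendritic cells, which also express Spib, 2 rose and 1 fell at 4 weeks, and 3 were higher and 2 lower than saline at 15 weeks. Bst2 and Pacsin1 were higher at both times and Siglech lower at both. The summed level of that list was 359 to 424 CPM in saline, 329 to 711 CPM at 4 weeks and 302 to 446 CPM at 15 weeks, and its part in the level of Spib was not tested.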

How the data were processed

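Lung RNA of 43 libraries was sequenced with a strand-specific mRNA kit, per the labels' protocols, on genome build GRCm38, per the submitters' processing notes. The deposited values are the authors' raw counts, whole numbers for each Entrez gene without normalization; the sources used here do not state the aligner, counter, annotation or strand setting. Of 24475 IDs, 24375 were matched to symbols. The 100 others hold 2.62% of counts and stayed in the totals. They hold 13.3% of counts in replicate 1 at 15 weeks without antibody, which stood apart, and 1.05% to 4.56% in the other libraries. No 2 libraries were identical.

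With R 4.3.3 and edgeR 4.0.16, all 43 libraries entered 1 robust quasi-likelihood fit with group and number range as terms, TMM scaling and filterByExpr (15598 genes); 7 contrasts were tested, with Benjamini-Hochberg adjustment over all genes and a threshold of 0.05. Values per gene are CPM from those counts. Relative levels used log2(CPM + 0.5), two-sided exact permutation tests over libraries, and adjustment over 49 tests. Genes alike in pattern were the 10 with the highest Pearson correlation. Both tests were checked on simulated data. Alternatives used limma 3.58.1, DESeq2 1.42.0, other scalings, filters and subsets of libraries. The 7 genes, the 15 gene lists and the tests were chosen with earlier results of these data known. Named list genes are examples from those lists, picked after their values were seen. Promoter sequences and motif searches used RefSeq windows of 250 bases on GRCm38.p6, and gene positions are those of GENCODE and RefSeq for that build. Igh genes Ighd and Ighm of the lists, and Fdcsp, were not analysed here. Results for some list genes are not reported here.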

Additional observations from a re-analysis of the deposited data

Results flagged for a closer look

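The lowest of the 7 libraries at 15 weeks without antibody for Fcer2a, replicate 3, held 44.3 CPM, with its neighbour at 62.2 CPM. On log2 levels that gap was 0.581 of the full range of the 7 libraries, above the 95% limit of 0.568. On CPM itself that share would stay below the limit. Of 28 sets of libraries (7 genes in 4 groups), 1 was flagged this way, and chance flags about 1 in 20.

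For 3 genes the level differed between the 2 durations of HDM by the test of 15 against 4 weeks itself. No saline group is matched to either time, so duration cannot be told apart from age or time in the study. Pax5 had a log2 fold change of -1.54, Blk of -1.20 and Cd79b of -0.72.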

How the results depend on the processing

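No paired analysis was possible because the labels give the groups no shared replicate numbers. The planned filter of 1 CPM in 4 libraries kept the same 15598 genes as filterByExpr, so it changed nothing by construction. Of the 7 B cell genes, number range 1 alone called 0 for anti-IL-33 against isotype and 1 against saline. Number range 2 alone gave 0 for 15 against 4 weeks and 0 for anti-IL-33 against isotype and against no antibody. Anti-IL-33 against no antibody gave 2 with upper-quartile size factors, DESeq2 or no term for the number range. Leaving out single libraries gave 0 to 1 for anti-IL-33 against isotype (0 without isotype replicate 1 or 3), 1 to 2 against no antibody, 2 to 4 against saline, 3 to 4 for 15 against 4 weeks and 6 to 7 for 4 weeks against saline. The relative-level count of 20 became 1 in number range 2 alone, where isotype has 1 library and was not run. In that range 15 weeks without antibody has 2 libraries, so exact tests with that group could hardly pass after adjustment. The 4 differences at 4 weeks against saline and the 3 of anti-IL-33 against saline do not use that group. No more than 1 of these passed in that range. The count was 20 each time 1 isotype library was left out. None of the 20 differences involves isotype, so leaving those libraries out could not change them. Single libraries of the other groups were not left out for the relative levels.

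Of all genes, number range 1 alone called 2308 (4 weeks against saline; 8864 in all libraries), 4194 (15 weeks against saline; 9235), 1406 (15 against 4 weeks; 3334), 297 (anti-IL-33 against isotype; 1047), 3560 (no antibody; 5588) and 578 (saline; 6015). Number range 2 alone called 149 for 15 against 4 weeks, 1 for the isotype comparison, and for anti-IL-33 1 against isotype and 4 against no antibody. For 15 against 4 weeks, only the 2 groups compared gave 1232. Isotype against no antibody gave 5 with upper-quartile factors, 7 with no filter, 4 with no range term, 1 without the 2 libraries that stand apart and 8 by DESeq2, and 0 to 11 leaving out single libraries. Anti-IL-33 against isotype gave 687 with no filter, 4134 with only the 2 groups compared, 1704 by DESeq2 (1026 higher and 678 lower, against 558 and 489), and 58 to 1502 leaving out single libraries. Anti-IL-33 against no antibody gave 3459 to 6251 leaving out single libraries, the lowest without 15-week replicate 1.

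Changes of sign all concerned log2 fold changes that were not called. In number range 2 alone Ms4a1 was 0.29 for 15 weeks against saline, -0.23, -0.29 and -0.0005 for anti-IL-33 against isotype, no antibody and saline, and against no antibody Pax5 was -0.20 and Cd79b -0.33. There Cd22 was -0.16 against isotype, Blk -0.20 for anti-IL-33 against saline, and isotype against no antibody gave -0.0652 for Pax5, -0.12 for Cd79b and 0.29 for Cd22. In number range 1 alone anti-IL-33 gave 0.0594 for Cd79a and 0.0973 for Cd79b against isotype and 0.36 for Pax5 against saline. With only the 2 groups compared Ms4a1 was 0.0795 for 15 weeks against saline, Cd79b 0.0014 for anti-IL-33 against isotype and Blk -0.0021 against saline. By limma-voom Ms4a1 was 0.0404 for isotype against no antibody and Blk -0.081 for anti-IL-33 against saline, and without the 2 libraries that stand apart Ms4a1 was 0.0532 for 15 weeks against saline. Leaving out single libraries, the range was -0.26 to 0.0844 for Ms4a1 at 15 weeks against saline, and for isotype against no antibody -0.24 to 0.11 for Ms4a1 and -0.21 to 0.0261 for Fcer2a. For anti-IL-33 it was -0.18 to 0.0878 for Cd79a and -0.19 to 0.029 for Cd79b against isotype, -0.0308 to 0.26 for Cd79b against no antibody, and -0.10 to 0.0451 for Pax5 and -0.0659 to 0.12 for Blk against saline. The cause of these changes was not tested. Beyond leaving out libraries, 484 of 525 log2 fold changes of the 7 genes kept direction and side of the threshold, 8 gained the call, 13 lost it and 20 changed sign; 49 of the 484 come from the filter that kept the same genes. Depth limits Pax5 and Blk most, since their lowest raw counts were 35 and 29.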

Other observations

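The relation of Fcer2a to the other 6 B cell genes across libraries was examined within each group of at least 6 libraries after the values had been seen. At 4 weeks of HDM log2 CPM of Fcer2a rose with the mean log2 CPM of the other 6 genes over 10 libraries (Pearson r = 0.793, permutation p = 0.00665, adjusted over 4 groups 0.0266; Spearman rho = 0.733, permutation p = 0.0202, adjusted 0.0808). Without the 2 libraries farthest from the median r was 0.818. Within number range 2 it was 0.780 over 6 libraries (permutation p = 0.0615), and number range 1 holds too few libraries for a value.

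Under anti-IL-33 the sign was the opposite over 15 libraries (Pearson r = -0.596, permutation p = 0.0233, adjusted 0.0467; Spearman rho = -0.329, permutation p = 0.229, adjusted 0.267). Replicate 7, with the highest Ms4a1, at 155 CPM, and the highest Pax5, Cd79a, Cd79b, Cd22 and Blk of that group, had the lowest Fcer2a, at 19.9 CPM. Without the 2 farthest libraries r was -0.495, and within the number ranges it was -0.628 over 8 libraries and -0.335 over 7 (permutation p = 0.0948 and 0.472). The sign was negative in both ranges and by rank, without a p under 0.05 in any of these. In saline r was 0.783 over 7 libraries (permutation p = 0.0448, adjusted 0.0598; rho = 0.607, permutation p = 0.167) and 0.087 without the 2 farthest, so it rests on those libraries. At 15 weeks without antibody r was 0.124 over 7 libraries (permutation p = 0.827; rho = 0.5, permutation p = 0.267). The difference between groups in this relation was not tested.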
